A study of Mus musculus with 24 samples.

Results

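The genes described here are 31 that mark the identity of endothelial cells, the cells that line blood and lymphatic vessels: Pecam1, Cdh5, Plvap, Emcn, Esam, Egfl7, Cldn5, Meox2, Sox17, Sox18, Sox7, Robo4, Eng, Mmrn2, Clec14a, Cd34, Erg, Ets1, Gpihbp1, Podxl, Icam2, Flt4, Nos3, Vwf, Rasip1, Cd93, Ptprb, S1pr1, Acvrl1, Ednrb and Lyve1. They were taken by symbol. Every probe annotated to 1 of these symbols was followed, 57 probes of 45281 on the array, for 31 of the 19057 genes that the array names. RNA of whole pituitary glands was measured in 24 mice aged 8 weeks, on 1 Illumina expression array each, and the study's title names thyrotrope adenoma. The mutants are labelled Cga-deficient; Cga is the gene of the common alpha chain of thyrotropin and the gonadotropins. The wild types were littermates. Each genotype was sampled in 6 males and 6 females. All were of the strain given as Mixed C57Bl6j 129S2SvPas, and how the mutant allele was made is not stated in the sources used here.

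The anterior pituitary is fed by a portal capillary bed whose endothelium is fenestrated, so that releasing hormones can enter and pituitary hormones can leave the blood quickly. Endothelial identity is set by ETS and SOX family transcription factors, which act on genes for junctions, adhesion molecules and vascular receptors. Plvap forms the diaphragms of fenestrae, while Cldn5 is the claudin of tight endothelial junctions and is best known from the blood-brain barrier.

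Cga checked the labels: its signal was 5.14-fold lower in mutant than in wild-type males (adjusted p = 3.8e-16, limma) and 4.28-fold lower in females (adjusted p = 4e-15). The probe did not fall to background in the mutants, where it read 12.22 to 12.71 in males and 12.32 to 13.02 in females, against 14.68 to 14.91 in wild types. Where the probe lies relative to the mutation is not known here. Between 39.7% and 50.8% of probes were detected on an array, with the wild-type males lowest (39.7% to 43.1%), then the wild-type females (43.9% to 46.4%), and the mutants higher (47.1% to 49.0% of males' probes and 47.3% to 50.8% of females'). No array stood far from its group, with correlations to the group's other arrays, averaged, from 0.992 to 0.997. The levels given here are normalized log2 intensities, which follow the deposited bead intensities, and each log2 difference carries a standard error (SE) after the ± sign, from groups of 6 arrays. In whole-gland RNA, fewer endothelial cells and less RNA of a gene per endothelial cell cannot be told apart.

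Of the 31 genes, 24 had a probe that was detected on at least 6 arrays and could be compared between groups. Junction and surface genes of endothelium (Pecam1, Cdh5, Esam, Emcn, Plvap, Cldn5, Robo4) were among the 20 detected on all 24 arrays, so endothelial RNA was measured on every array. The probe used for Sox17 was detected on all mutant arrays and on no wild-type array. Cd34 was detected on 22 arrays, Gpihbp1 on 21 and Flt4 on 16. The other 7 could not be compared. Meox2, Clec14a, Erg and S1pr1 were detected on 0 arrays by any probe. Acvrl1, a receptor of the BMP9 pathway, was detected on 1 array. Lyve1, a marker of lymphatic endothelium and of some macrophages, was detected on 2, both of mutant females. Vwf, which encodes von Willebrand factor, was detected on 5, of which 4 were of mutant males and 1 was of a mutant female. A probe below detection says only that its signal was not above the array's negative controls.

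Promoter windows from RefSeq (GRCm38.p6) are shown for 4 of the genes whose values are described below, to set beside their levels. Egfl7 and Rasip1 hold the 6-base ETS motif CAGGAA, and Cldn5 and Flt4 hold neither it nor CCGGAA. Other forms of the ETS motif were not searched. Each is the 250 bases before the gene's first annotated base, on the gene's strand, 5′ to 3′. Capitals mark CAGGAA, read on either strand (TTCCTG on the other). The motif CCGGAA was searched in the same way and was in none of the 16 windows found for 12 of the genes. A window belongs to a transcript start, and 8 of the 16 reach past the first annotated base of their gene and are not printed.
Egfl7, chr2:26580833-26581082, plus strand: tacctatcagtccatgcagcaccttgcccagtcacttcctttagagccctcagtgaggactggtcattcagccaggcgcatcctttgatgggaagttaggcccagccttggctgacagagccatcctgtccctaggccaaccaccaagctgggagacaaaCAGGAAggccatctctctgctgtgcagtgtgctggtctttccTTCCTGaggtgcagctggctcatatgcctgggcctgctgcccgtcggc
Rasip1, chr7:45627287-45627536, plus strand: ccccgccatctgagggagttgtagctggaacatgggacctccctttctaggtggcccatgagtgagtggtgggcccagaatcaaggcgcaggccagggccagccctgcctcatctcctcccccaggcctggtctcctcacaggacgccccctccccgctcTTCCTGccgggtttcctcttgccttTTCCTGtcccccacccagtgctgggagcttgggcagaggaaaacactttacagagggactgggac
Cldn5, chr16:18776597-18776846, plus strand: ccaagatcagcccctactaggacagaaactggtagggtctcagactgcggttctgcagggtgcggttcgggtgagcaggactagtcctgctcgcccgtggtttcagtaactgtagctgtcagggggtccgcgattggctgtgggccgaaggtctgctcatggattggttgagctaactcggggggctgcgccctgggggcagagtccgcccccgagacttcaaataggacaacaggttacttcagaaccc
Flt4, chr11:49609429-49609678, plus strand: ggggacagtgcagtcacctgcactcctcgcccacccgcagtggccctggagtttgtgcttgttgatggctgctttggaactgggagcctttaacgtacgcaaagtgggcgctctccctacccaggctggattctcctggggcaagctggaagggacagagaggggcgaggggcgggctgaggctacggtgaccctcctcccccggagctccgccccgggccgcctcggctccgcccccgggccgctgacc
CAGGAA was in 8 of the 16 windows, those of Cd34, Clec14a, Egfl7, Emcn, Erg, Rasip1 and Robo4, and in 25.7% of 32851 windows of the same length over all genes. The SOX motif AACAAT was in 2 (Emcn and Erg) against 9.42% of all windows, and the GATA motif AGATAA in 1 (Erg) against 9.99%, on either strand. These matches describe letters only: of the 7 genes with CAGGAA, Rasip1, Egfl7 and Cd34 rose in mutants of both sexes, Robo4 rose in females, Emcn passed the test in neither sex, and Clec14a and Erg were not measured.

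The first comparison asked how the endothelial genes differed between mutant and wild-type glands of the same sex. The set did not move as a block. In males, 9 of the 24 measured genes were higher in mutants and 4 were lower at an adjusted p under 0.05 (limma, over 12027 genes), and the other 11 passed in neither direction. In females, 14 were higher, 2 were lower and 8 passed in neither direction. Most of the transcriptome moved in these mice: 51.5% of all tested genes were called in males (25.0% higher, 26.5% lower) and 48.3% in females (22.8% higher, 25.5% lower), so the 54.2% called among the endothelial genes in males lay close to that background, and the 66.7% in females lay above it. The median log2 difference was 0.19 in males and 0.38 in females, against -0.01 and -0.03 over all genes.
A gene seen in mutants alone had to differ in order to be measured at all. Over the 20 genes detected on every array, 6 were higher and 3 lower in males, and 11 higher and 2 lower in females. Of all 9184 genes detected on every array, 22% were higher and 27.8% lower in males, and 21.1% higher and 26.8% lower in females. Only a few were far apart: 2 genes rose at least 2-fold in males (5.23% of all genes did) and 3 in females (4.82%), and 1 had a fitted fall of that size in males (4.37%) and 0 in females (3.20%). The 1 was Flt4, whose bound, at least 1.88-fold, is below 2-fold.

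**Figure D1:**
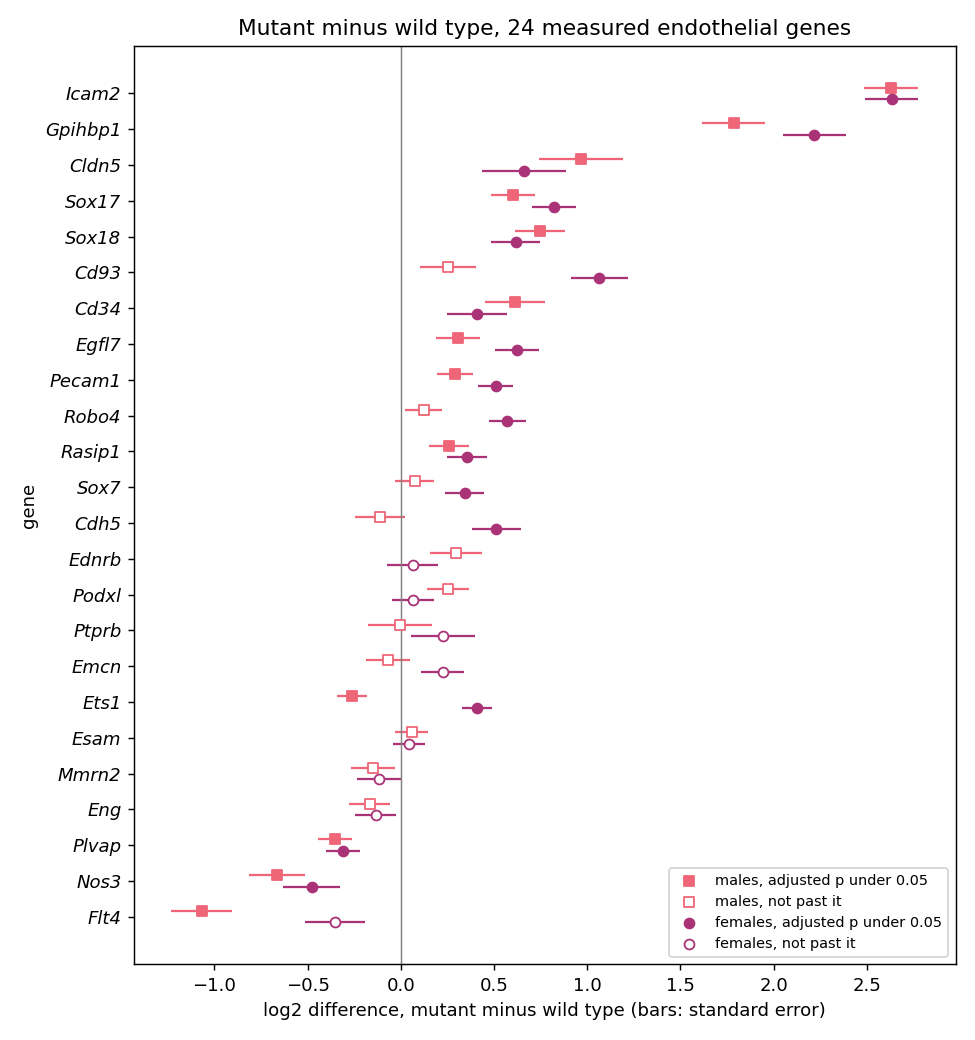
The log2 difference of mutant minus wild type (x axis) of the 24 measured endothelial genes (y axis), with squares for males, circles for females and bars for the standard error; filled symbols passed an adjusted p under 0.05. Icam2 and Gpihbp1 lie far to the right in both sexes, and Flt4, Nos3 and Plvap lie to the left of 0.

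Among adhesion and junction genes, the largest rise was in Icam2, which encodes an adhesion molecule of endothelium, leukocytes and platelets that binds leukocyte integrins. Its log2 level was 7.20 at the lowest, 7.46 at the median and 7.58 at the highest of the 6 wild-type male arrays, and 9.86, 10.05 and 10.37 in mutant males. The same 3 values were 6.87, 7.39 and 8.10 in wild-type females and 9.83, 10.01 and 10.43 in mutant females. Every mutant array lay above every wild-type array in both sexes, by a gap wider than the range within any group. On the deposited intensity scale, the median probe signal of Icam2 was 265 in wild-type and 1199 in mutant males, and 222 and 1185 in females. The difference was 6.20-fold in each sex (log2 2.63 ± 0.14, SE; adjusted p = 4.5e-14 in males and 4.8e-14 in females), the 88th largest of 12027 genes in males and the 105th in females. It was nearly the same in the sexes, with a difference between them of 0.00 ± 0.20 (SE).

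Pecam1, which encodes the platelet and endothelial adhesion molecule CD31, rose less. Its levels ran 7.61, 7.76 and 8.04 in wild-type males (lowest, median and highest) and 7.95, 8.05 and 8.32 in mutant males. In females they ran 7.49, 7.64 and 7.76 against 7.90, 8.17 and 8.33. The male groups overlapped and the female groups did not. Pecam1 was 1.22-fold higher in mutant males (log2 0.29 ± 0.10; adjusted p = 0.013) and 1.42-fold higher in mutant females (0.51 ± 0.10; adjusted p = 9.4e-05). A second Pecam1 probe passed in neither sex, and with both probes averaged the male difference fell to 0.19 (adjusted p = 0.11).

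Cldn5 levels were 6.47, 6.85 and 7.27 in wild-type and 7.19, 7.73 and 8.55 in mutant males. They were 6.24, 6.45 and 7.69 in wild-type and 6.91, 7.36 and 7.93 in mutant females. Both pairs of groups overlapped, the female pair through 1 high wild-type array. Cldn5 was 1.96-fold higher in mutant males (log2 0.97 ± 0.22; adjusted p = 0.00078) and 1.58-fold higher in mutant females (0.66 ± 0.22; adjusted p = 0.017), and the female call was lost without mutant female 3 (adjusted p = 0.051). In the authors' processed table, whose signals had no background removed here, the female difference was 0.39.

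Cd34, a sialomucin of endothelium and blood progenitors, ran from 5.38 through 6.07 to 6.55 in wild-type and from 6.25 through 6.68 to 6.91 in mutant males. In females it ran from 5.68 through 6.10 to 6.20 and from 6.14 through 6.43 to 6.81. The groups overlapped in both sexes, and 4 of the 6 wild-type male arrays detected the probe. The rise was 1.53-fold in males (log2 0.61 ± 0.16; adjusted p = 0.0023), and in females it was 1.33-fold (0.41 ± 0.16; adjusted p = 0.037). The female call did not survive leaving out wild-type female 1 (adjusted p = 0.097) or mutant female 2 (0.10), and the authors' table gave 0.30 in males and 0.20 in females.

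Rasip1, a Ras-interacting protein needed for vascular lumen formation, spanned 8.00, 8.06 and 8.28 in wild-type and 7.98, 8.37 and 8.61 in mutant males. It spanned 7.57, 7.82 and 8.06 in wild-type and 7.90, 8.18 and 8.40 in mutant females. All these ranges overlapped within a sex. The gene was 1.20-fold higher in mutant males (log2 0.26 ± 0.11; adjusted p = 0.045) and 1.28-fold higher in mutant females (0.36 ± 0.11; adjusted p = 0.0082). The male call was lost in 12 of 24 repeats that each left out 1 array, with adjusted p-values up to 0.12.

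A further 4 junction and surface genes, Esam, Emcn, Podxl and Mmrn2, gave no call in either sex. Esam, a junctional adhesion molecule, differed by 0.06 ± 0.09 in males and 0.04 ± 0.09 in females, and Emcn, the endomucin of capillaries and veins, by -0.07 ± 0.12 and 0.22 ± 0.12. Podxl, a sialomucin that lines the lumen, differed by 0.25 ± 0.11 in males (adjusted p = 0.062) and 0.06 ± 0.11 in females. Mmrn2, a matrix glycoprotein that binds the proteins of Cd93 and Clec14a, differed by -0.15 ± 0.12 and -0.12 ± 0.12. Their levels lay between 9.83 and 10.40 for Esam, 9.86 and 10.75 for Emcn, 7.64 and 8.47 for Podxl and 8.24 and 9.06 for Mmrn2 over all 24 arrays.

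**Figure D2:**
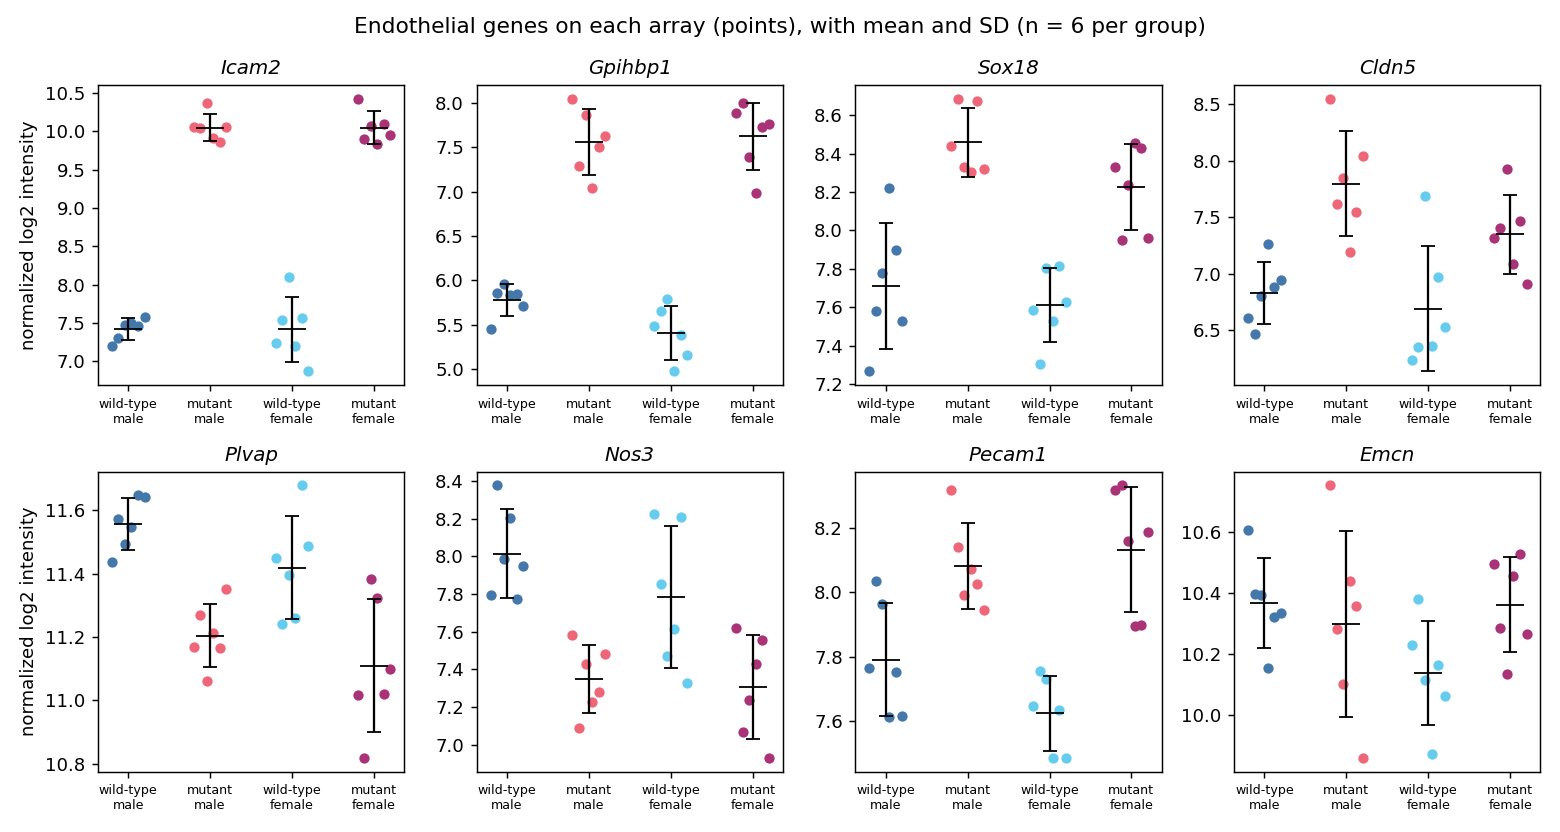
Normalized log2 intensity (y axis, a different range in each panel) of 8 endothelial genes on each array, by group (x axis; wild-type and mutant males, then wild-type and mutant females), with points for arrays and a line with bars for the mean and SD of 6. Icam2 and Gpihbp1 separate the genotypes with no overlap in both sexes, Plvap and Nos3 are lower in mutants, and the Emcn groups overlap.

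Genes of the specialised capillary wall went different ways. Gpihbp1, which carries lipoprotein lipase across capillary endothelium and anchors it at the lumen, rose. Its levels ran 5.45, 5.84 and 5.96 in wild-type and 7.04, 7.57 and 8.05 in mutant males, and 4.98, 5.43 and 5.79 in wild-type and 6.98, 7.74 and 8.00 in mutant females. No wild-type array reached a mutant array in either sex. The fitted rise was 3.45-fold in males (log2 1.79 ± 0.17; adjusted p = 2.3e-09), and in females it was 4.65-fold (2.22 ± 0.17; adjusted p = 4.8e-11), the 291st and 173rd largest of all genes. The probe was detected on 5 of 6 wild-type males and 4 of 6 wild-type females. Counting undetected arrays at the lowest detected signal makes it at least 3.41-fold in males and at least 4.30-fold in females. A second probe rose too, by 1.22 in males and 2.0 in females on the log2 scale, and in the authors' table the differences were 1.01 and 1.20.

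Plvap is the diaphragm protein of fenestrae. It measured 11.44, 11.56 and 11.65 in wild-type and 11.06, 11.19 and 11.35 in mutant males. In females it measured 11.24, 11.42 and 11.68 against 10.82, 11.06 and 11.38. The male groups did not overlap, and the female groups did. Plvap was lower in mutants, in males by 1.28-fold (log2 -0.35 ± 0.09; adjusted p = 0.0022), and in females by 1.24-fold (-0.31 ± 0.09; adjusted p = 0.0069). With arrays scaled to their 75th percentile the male difference was -0.22.

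Nos3 is the endothelial nitric oxide synthase. Its levels ran 7.77, 7.97 and 8.38 in wild-type and 7.09, 7.35 and 7.58 in mutant males, with no overlap. They ran 7.33, 7.74 and 8.23 in wild-type and 6.93, 7.33 and 7.62 in mutant females, with overlap. Nos3 was lower in mutants, in males by 1.59-fold (log2 -0.67 ± 0.15; adjusted p = 0.00064), and in females by 1.39-fold (-0.48 ± 0.15; adjusted p = 0.011). All 3 of its measured probes were lower in males (-0.67 to -0.55), and 1 of the 3 was in females (-0.48 to -0.15).

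Egfl7, a secreted vascular protein whose gene hosts an endothelial microRNA, rose. It ran 10.21, 10.35 and 10.58 in wild-type and 10.38, 10.71 and 10.87 in mutant males. It ran 9.84, 10.06 and 10.46 in wild-type and 10.56, 10.69 and 11.14 in mutant females. The female groups did not overlap. Egfl7 was 1.24-fold higher in mutant males (log2 0.31 ± 0.12; adjusted p = 0.031) and 1.54-fold higher in mutant females (0.62 ± 0.12; adjusted p = 9.6e-05), and a second probe was called higher in both sexes (0.28 and 0.70). The male call was lost in 6 of 24 repeats that left out 1 array (adjusted p up to 0.072).

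The SOXF factors, transcription factors of endothelial specification and arterial and lymphatic fate, rose in part. Sox18 ran 7.27, 7.68 and 8.22 in wild-type and 8.30, 8.38 and 8.69 in mutant males, and 7.30, 7.61 and 7.82 in wild-type and 7.95, 8.29 and 8.46 in mutant females. In both sexes the lowest mutant array lay above the highest wild-type array. The rise was 1.68-fold in males (log2 0.75 ± 0.13; adjusted p = 3.8e-05), and in females it was 1.53-fold (0.62 ± 0.13; adjusted p = 0.00042). Sox7 ran 6.39, 6.60 and 6.86 in wild-type and 6.63, 6.99 and 7.34 in mutant females, which overlapped, and was 1.27-fold higher in mutant females (0.34 ± 0.11; adjusted p = 0.0086). In males its levels of 6.51, 6.73 and 6.84 in wild types and 6.61, 6.74 and 6.98 in mutants gave a difference of 0.08 ± 0.11 (adjusted p = 0.56). Of 3 Sox7 probes 1 was called in females, and their average gave 0.16 (adjusted p = 0.062).

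The probe used for Sox17 was detected in mutants only. It read 5.28, 5.74 and 5.95 in mutant males and 5.36, 5.74 and 6.14 in mutant females, with all 12 arrays detected. The wild-type readings, 4.99, 5.07 and 5.17 in males and 4.69, 4.95 and 5.16 in females, were not above background on any array. By this probe Sox17 was at least 1.03-fold higher in mutant males and at least 1.29-fold higher in mutant females. The fitted differences that gave its calls, 0.60 in males (adjusted p = 0.00013) and 0.82 in females (adjusted p = 2.6e-06), use the wild-type readings below background, and the probe was kept only through the mutants. A second Sox17 probe, dimmer on average, was called higher in both sexes (0.40 in males, 0.56 in females). Its detection by group is not given here, so it may also have been kept only through the mutants. With every signal below the array set's highest detection floor (5.79 log2) raised to it, the differences were 0.04 (adjusted p = 0.49) and 0.09 (adjusted p = 0.14), and neither call was left.

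Receptors without a call in either sex were Eng, a coreceptor of TGF-beta and BMP ligands (-0.17 ± 0.11 in males, -0.14 ± 0.11 in females), Ptprb, the endothelial phosphatase that acts on the angiopoietin receptor (0.00 ± 0.17 and 0.23 ± 0.17), and Ednrb, the endothelin receptor B (0.29 ± 0.14 and 0.06 ± 0.14). Ednrb came near the threshold in males, with an adjusted p of 0.077. It passed there with 75th percentile scaling (0.41, adjusted p = 0.014) and with its 3 probes averaged (0.46, adjusted p = 0.016). Levels over all arrays ran from 7.29 to 8.14 for Eng, from 6.66 to 7.97 for Ptprb and from 10.53 to 11.81 for Ednrb. A missed threshold does not show that these genes were equal in the genotypes.

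The second comparison asked whether the mutant difference was the same in the sexes. It was tested as the female minus the male difference, in the same model. Of the 24 genes, 5 passed, all with the more positive difference in females: Cd93, Cdh5, Ets1, Robo4 and Flt4. That is 20.8% of the measured endothelial genes, against 13.6% of all genes called in either direction with 7.25% called in this direction and 6.36% in the other, where 0 of the 24 were. The median over the 24 was 0.20, against -0.005 over all genes. Of these 5 genes, 5 were also lower in wild-type females than in wild-type males. Both comparisons use the wild-type arrays, so the values are given side by side and are not independent.

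Cd93, a lectin-like receptor of endothelium and myeloid cells, was lowest in wild-type females. Its levels ran 7.73, 7.78 and 8.14 in wild-type males, 7.79, 7.97 and 8.67 in mutant males, 6.62, 7.37 and 7.67 in wild-type females and 8.14, 8.35 and 8.62 in mutant females. Every wild-type female array lay below every array of the other 3 groups. The mutant difference was 2.09-fold in females (log2 1.07 ± 0.15; adjusted p = 2e-06) and 1.19-fold in males (0.25 ± 0.15; adjusted p = 0.16), and these differed by 0.81 ± 0.21 (adjusted p = 0.013). Between wild types, females were 1.47-fold lower (-0.55 ± 0.15; adjusted p = 0.0079). A second probe was higher in mutants of both sexes, by 0.38 in males and 0.84 in females, and gave no call for the difference between them (0.46).

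Ets1, an ETS transcription factor of endothelium and lymphocytes, moved in opposite directions in the sexes. It ran 9.35, 9.56 and 9.63 in wild-type and 9.19, 9.21 and 9.51 in mutant males, where all but 1 mutant array lay below every wild-type array. It ran 8.74, 8.95 and 9.02 in wild-type and 9.09, 9.36 and 9.54 in mutant females, with no overlap. Ets1 was 1.20-fold lower in mutant males (log2 -0.26 ± 0.08; adjusted p = 0.0081) and 1.33-fold higher in mutant females (0.41 ± 0.08; adjusted p = 0.00016), and the difference between these was 0.67 ± 0.11 (adjusted p = 0.00029). Wild-type females were 1.51-fold below wild-type males (-0.60 ± 0.08; adjusted p = 4.8e-06), with no overlap. Each of these calls held in all 36 other settings, of which 35 apply to the difference between the sexes.

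Robo4, an endothelial receptor of the roundabout family, and Cdh5, the VE-cadherin of adherens junctions, rose in mutant females. Robo4 ran 9.68, 9.96 and 10.01 in wild-type and 9.83, 10.01 and 10.38 in mutant males, and 9.45, 9.63 and 9.77 in wild-type and 10.04, 10.10 and 10.46 in mutant females, with no overlap between the female groups. Its difference was 0.12 ± 0.10 in males (adjusted p = 0.31) and 0.57 ± 0.10 in females (1.49-fold; adjusted p = 3.3e-05), with 0.45 ± 0.14 between them (adjusted p = 0.033), and wild-type females were 0.28 ± 0.10 below wild-type males (adjusted p = 0.038). A second Robo4 probe, detected on 9 arrays, was lower in mutants of both sexes (-0.46 in males, -0.29 in females). With both probes averaged Robo4 was at 0.14 in females (adjusted p = 0.22), and the difference between the sexes was 0.31 (adjusted p = 0.11). Leaving out 1 array at a time, the difference between the sexes lost its call in 10 of 24 repeats and that between wild-type sexes in 8.

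Cdh5 ran 7.45, 7.75 and 7.89 in wild-type and 7.33, 7.56 and 8.10 in mutant males, and 7.08, 7.38 and 7.63 in wild-type and 7.48, 7.81 and 8.23 in mutant females. Both pairs overlapped. It differed by -0.11 ± 0.13 in males (adjusted p = 0.49) and rose 1.43-fold in females (0.51 ± 0.13; adjusted p = 0.0023), with 0.62 ± 0.19 between the sexes (adjusted p = 0.026). A second Cdh5 probe, tested on its own in limma, was not called in females (0.355, adjusted p = 0.16). The female call held with both probes averaged. Wild-type females were 0.39 ± 0.13 below wild-type males on the log2 scale (adjusted p = 0.031). The difference between the sexes missed the threshold without mutant female 2 (adjusted p = 0.051) and with both probes averaged (0.067). The wild-type difference missed it in 5 of 24 repeats without 1 array (adjusted p up to 0.077) and with both probes averaged (0.056).

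Flt4, the VEGF receptor of lymphatic and fenestrated endothelium, was highest in wild-type males. It ran 5.96, 6.24 and 6.63 in wild-type males, 4.83, 5.14 and 5.60 in mutant males, 5.05, 5.54 and 6.00 in wild-type females and 4.79, 5.16 and 5.62 in mutant females. The wild-type males did not overlap the mutant males. Flt4 was detected on all 6 wild-type males, 4 wild-type females and 3 mutants of each sex, and the male fall was at least 1.88-fold (fitted -1.07 ± 0.16; adjusted p = 4.7e-06). In females the difference was -0.35 ± 0.16 (adjusted p = 0.077), and the female minus male difference was 0.72 ± 0.23 (adjusted p = 0.038). In the authors' table the male difference was -0.46 and the difference between the sexes 0.31 (adjusted p = 0.055), and the latter lost its call in 13 of 24 repeats that left out 1 array.

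**Figure D3:**
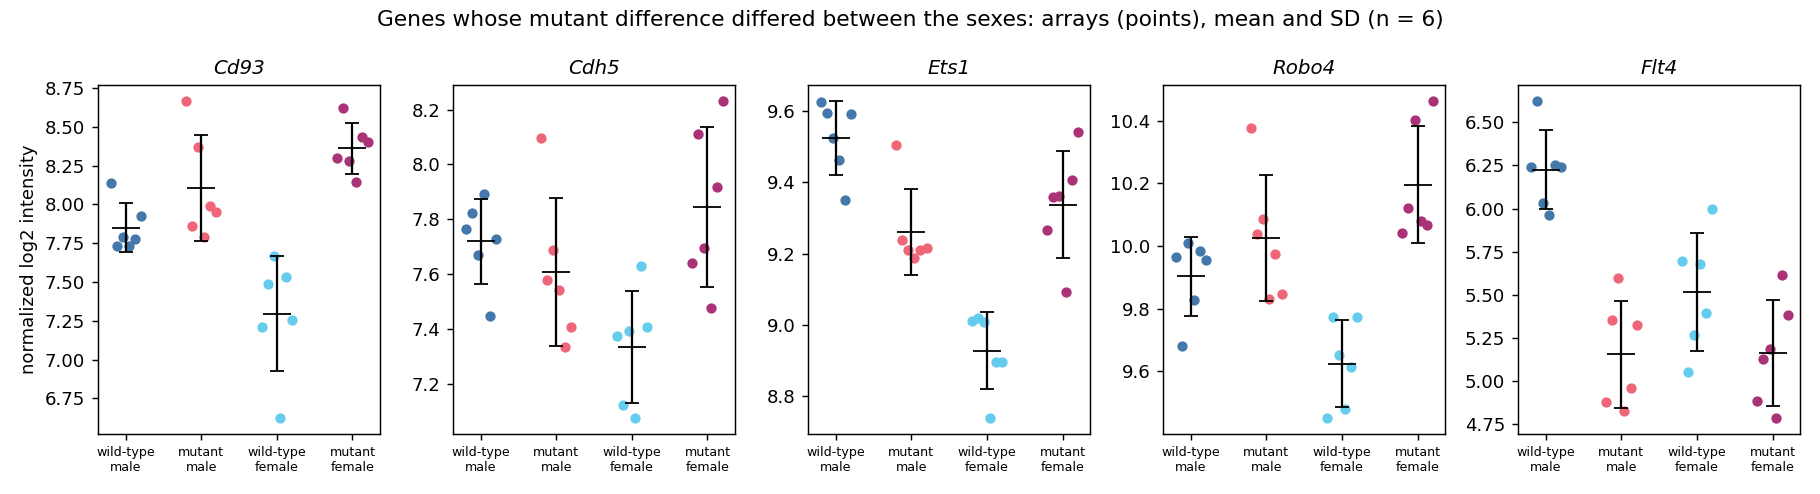
Normalized log2 intensity (y axis, a different range in each panel) on each array of the 5 endothelial genes whose mutant difference differed between the sexes, by group (x axis), with the mean and SD of 6 arrays. The mean of wild-type females is below that of wild-type males in every panel, and the means of mutant males and mutant females lie closer to each other than those of the wild-type sexes.

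Between wild-type sexes, 0 genes were higher and 5 lower in females, 20.8% of 24, against 27.3% of all genes called (14.8% lower). Of the 24, 22 had a negative difference and the median was -0.14, against 0.00 over all genes. Between mutant sexes, 0 of the 24 genes passed in limma where 8 of all genes (0.0665%) were called, and 0 of the 24 were under an unadjusted p of 0.05, against 6.22% of all genes. The group ranges overlapped for all 24 genes between mutant sexes, and did not overlap for Cd93 and Ets1 between wild-type sexes (8.33% of the 24, against 11.1% of all genes). Between genotypes, 7 genes had no overlap in males (29.2%, against 30.7% of all genes) and 9 in females (37.5%, against 23.6%). Both counts include Sox17, whose probe was kept only through the mutants.

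The mean of the 24 genes on each array, each centred on its own mean over all arrays, separated wild types from mutants. It ran -0.11, -0.06 and -0.06 in wild-type males, 0.06, 0.17 and 0.39 in mutant males, -0.46, -0.27 and -0.18 in wild-type females and 0.12, 0.17 and 0.22 in mutant females. All wild-type arrays were below all mutant arrays, and all wild-type females below all wild-type males, while the 2 mutant groups overlapped. The Sox17 probe was kept only through the mutants, so its part in this separation and in the version that follows was fixed in direction. Without Icam2 and Gpihbp1 the means were -0.03, 0.02 and 0.05 in wild-type males and -0.01, 0.08 and 0.30 in mutant males, which overlapped. In females they were -0.36, -0.19 and -0.09 against 0.04, 0.08 and 0.14, which did not. Mutant male 1 stood highest of all arrays in both versions, and without it 7 genes instead of 9 were called higher in males and the same number, 4, lower.

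**Figure D4:**
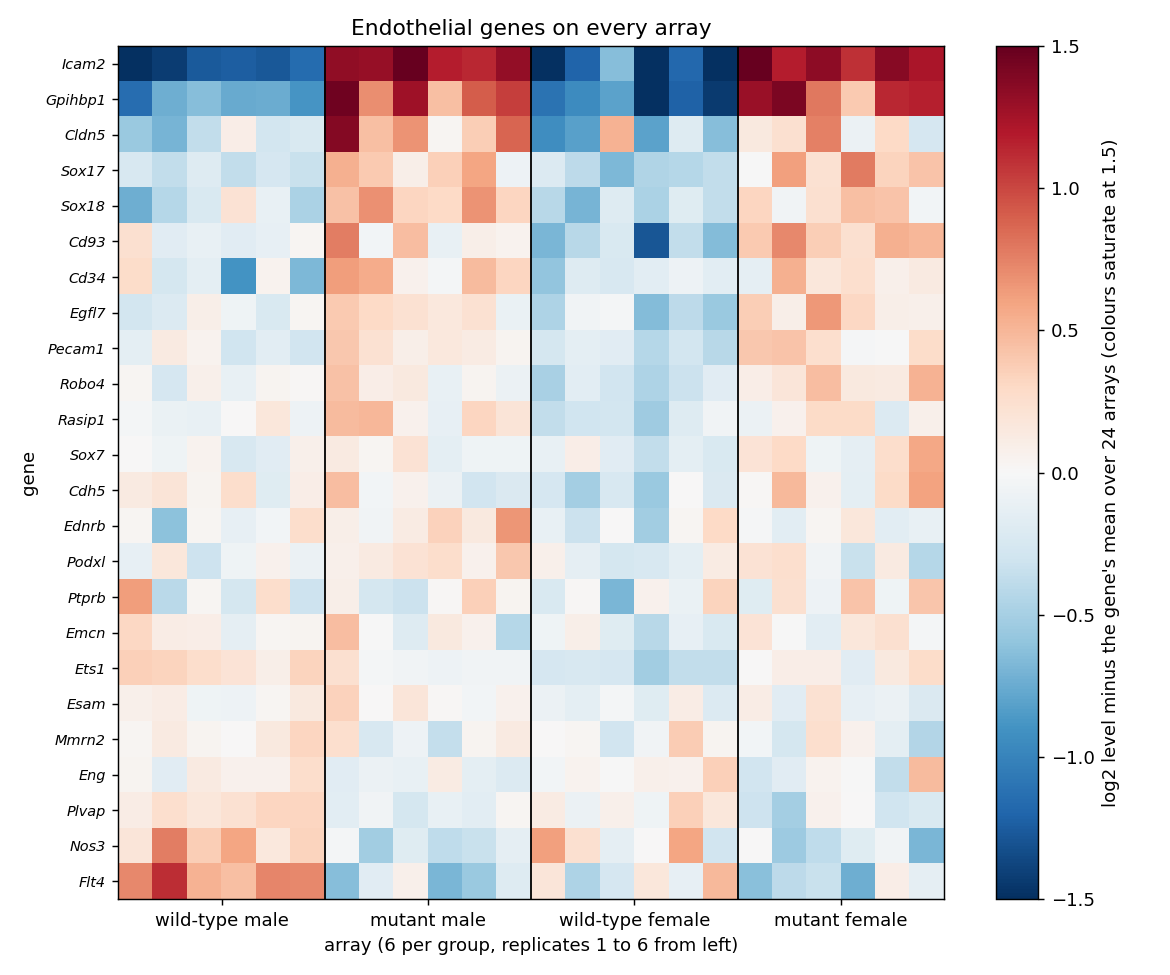
Log2 level of each of the 24 measured endothelial genes (y axis) on each of the 24 arrays (x axis, 6 per group), as a colour for the level minus the gene's mean over all arrays. Icam2 and Gpihbp1 change sharply between genotypes, the middle of the map is palest, and the wild-type females are blue for most genes that rise in mutant females.

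Within groups the genes varied together only weakly. After removing group means, the median correlation over the 276 pairs was 0.06 across 24 arrays, against -0.005 between an endothelial gene and genes outside the set. Of these pairs, 23 were above 0.5, and the share among pairs of other genes is not given here. Cd93 followed the mean of the other genes most closely (r = 0.81), then Robo4 (0.61), Esam (0.55) and Ets1 (0.55). At the other end stood Flt4 (-0.26), Ptprb (-0.23) and Eng (-0.19). The pairs share arrays and their normalization, and these values are descriptions.

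Other genes known from endothelium moved both ways as well. Of 30 listed, 21 were measured, and 6 were higher and 5 lower in mutant males, and 6 higher and 3 lower in mutant females, with medians of 0.21 and 0.20. Of all genes tested, 25.0% were called higher and 26.5% lower in males, and 22.8% and 25.5% in females. The male counts of this list lay near those shares, which also stand beside the counts of the lists below. Tspan12, a tetraspanin of the Norrin pathway, was lower in both (-1.46 in males, adjusted p = 7.1e-11; -0.90 in females, 4.2e-07), as was Kdr, the main VEGF receptor, at least 1.26-fold in males and at least 1.14-fold in females. Kdr was near background: 3 arrays of each wild-type group, 1 mutant male and 0 mutant females detected it. Its probe was kept mainly through the wild types, so a fall in mutants was favoured in advance. Stab2, a scavenger receptor of sinusoidal endothelium, was higher in both (0.53 and 1.51, adjusted p = 2.9e-08 in females), as was Tek, the angiopoietin receptor (0.33 and 0.44). Heg1, a receptor at endothelial junctions, fell by 0.72 in males, and Lmo2, a transcriptional cofactor of blood and endothelium, was lower in males (-0.35) and higher in females (0.35), with 0.69 between the sexes (adjusted p = 0.0019).
Of 10 genes of brain barrier endothelium 5 were measured, with 1 lower in males and 4 lower in females and none higher. Mfsd2a, a lipid transporter of that barrier, was at least 2.62-fold lower in males (adjusted p = 0.00046) and at least 3.55-fold lower in females (adjusted p = 1.9e-05), where 4 and 3 mutant arrays detected it. In contrast to Cldn5, which rose, Ocln, another tight junction gene that epithelium also expresses, was lower in females (-0.39). Of 3 measured lymphatic genes, Prox1 (0.47 and 0.60) and Pdpn (0.22 and 0.25), which pituitary cells other than endothelium can also express, were higher in both sexes. The third, Reln, was at least 170-fold lower in mutant females and was not called in males. Its mean was 12.72 in wild-type females and 5.19 in wild-type males, where 1 array detected it. Prox1 and Pdpn were not called between wild-type sexes. Which cells gave the Reln signal was not tested.

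Genes of other cells that whole glands hold moved with genotype. All 9 measured macrophage and leukocyte genes were called higher in mutants of both sexes, with medians of 1.31 in males and 0.90 in females. Mrc1 (1.35 and 1.24), Aif1 (1.60 and 0.90) and Cd74 (1.67 and 0.74) were among them. F13a1 was detected on 0 wild-type arrays and was kept only through the mutants, so its direction was fixed. Their summed normalized intensity was 3181 to 4953 in wild-type and 8733 to 13940 in mutant males, and 3806 to 5523 and 6848 to 9277 in females, and Ptprc, Cd68 and Cd163 were not measured. Leukocytes also express Icam2, Cd93, Ets1 and Pecam1. By the probes used, all of these were higher in mutant females. In mutant males Icam2 and Pecam1 were higher, Ets1 was lower and Cd93 was not called. The part of leukocytes in the differences of these genes was not tested.
Of 4 measured platelet genes 3 were higher in each sex, with medians of 0.59 and 0.53. Their summed intensity was 140 to 168 in wild-type and 202 to 247 in mutant males, and 139 to 173 and 207 to 240 in females. Gp9 was at least 1.46-fold higher in males and at least 1.54-fold higher in females. Pf4 and Gp1bb were detected on 0 wild-type arrays and Gp9 on 0 wild-type males, so these genes were kept mainly through the mutants, and Pf4 has no bound above 1 in males. Ppbp and Treml1 were not measured. The part of platelets in the rise of Icam2 and Pecam1 was not tested.
Of 13 pericyte and smooth muscle genes, 11 were measured, and 4 of the 11 passed the test of a difference between the sexes, all more positive in females. Of all genes, 7.25% passed in that direction. In males 1 was higher and 3 lower (median -0.18), and in females 5 were higher and 1 lower (median 0.28). Anpep, with the largest male rise of this list, was detected on 0 wild-type males and 6 mutant males. It was kept mainly through the mutants and has no bound above 1 in males. Cspg4, the NG2 proteoglycan of pericytes, was lower in both (-0.95 and -0.46), and Vtn (0.56) and Abcc9 (0.47) were higher in females. Higd1b was at least 1.19-fold higher in females and was detected on 1 wild-type and 5 mutant female arrays. Their summed intensity was 1538 to 1647 in wild-type and 1178 to 1526 in mutant males, and 1263 to 1558 and 1437 to 1701 in females. Of 5 measured red blood cell genes 0 were called by limma in either genotype comparison and 4 were lower in wild-type females than in wild-type males, with a summed intensity of 67280 to 100500 in wild-type males and 26310 to 90360 in wild-type females. Between wild-type sexes, 14.8% of all genes were lower in females. The part of blood content in the lower endothelial values of wild-type females was not tested.

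**Figure D5:**
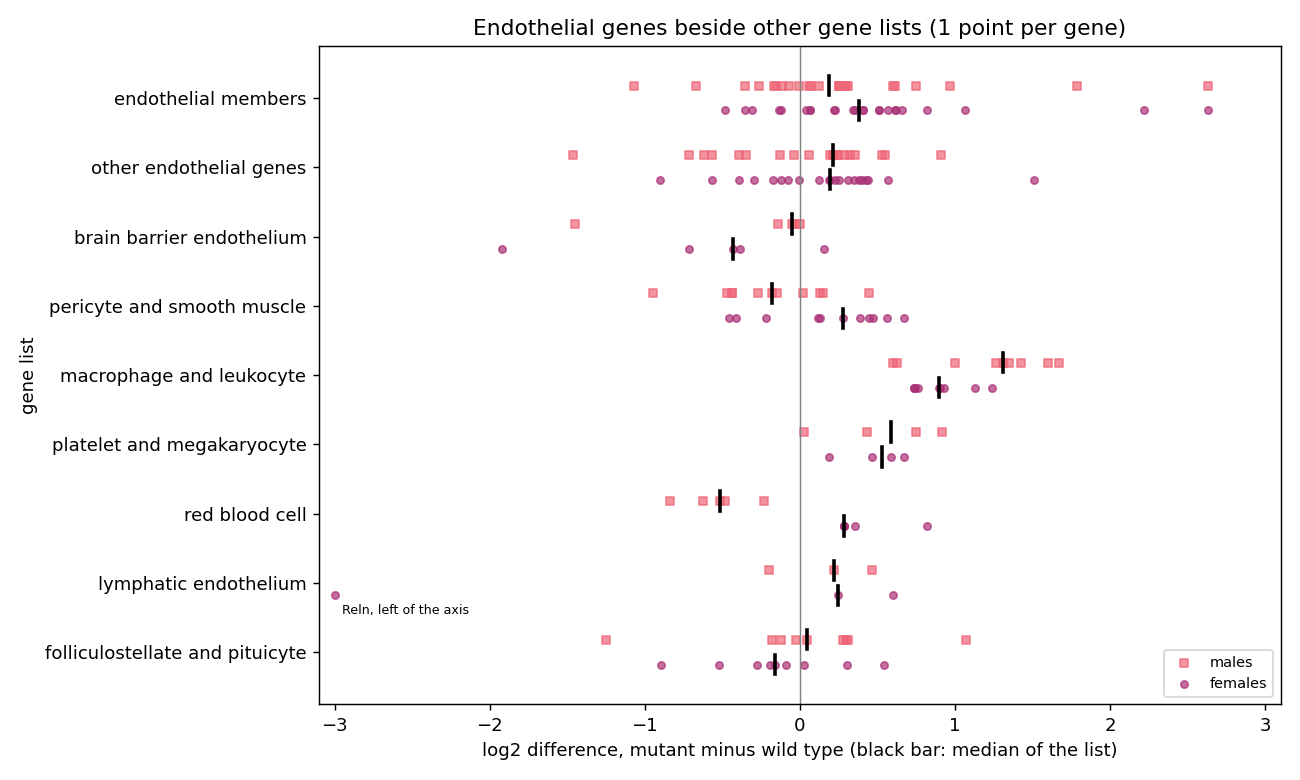
The log2 difference of mutant minus wild type (x axis) of each measured gene in the endothelial set and in 8 other gene lists (y axis), with squares for males, circles for females and a black bar at each list's median. The endothelial points spread on both sides of 0 with 2 far to the right, while all macrophage and leukocyte points lie to the right of 0; Reln, with a fitted -7.47 in females, is drawn at the left edge.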

How the data were processed

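RNA was extracted from pituitary tissue with the RNAqueous 4PCR kit and amplified to biotin-labelled cRNA, per the labels' protocols, and each of the 24 samples was put on 1 array. Per the file headers, the raw table that was deposited gives 45281 probes, each with an average bead intensity (linear scale) and a detection p-value against negative controls. GenomeStudio 2011.1 is the tool that the submitters' processing notes name. The median number of beads behind a deposited intensity was 42 to 44 on every array; the 24 columns of bead standard errors were not used. The authors' processed intensity, in another deposited table, has the same ranks (rank correlation at least 0.999999), column medians of 112.7 to 112.9, a linear scale and no centring. How it was normalized is not stated in the sources used here, and it was an alternative.

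The neqc function of limma 3.58.1 (offset 16; R 4.3.3) removed background from the raw intensities and equalised their quantiles. Kept were 23133 probes with a detection p-value under 0.05 on 6 or more arrays. Of all probes, 34885 had 1 gene symbol in the platform annotation, 18 had several and 10378 had none, and 34807 of the first matched RefSeq. For a gene with several kept probes the brightest, by its mean over the 24 arrays, was used, which left 12027 genes. One linear model (lmFit, eBayes) held 1 mean per group and a common spread, with Benjamini-Hochberg adjustment over all 12027 genes. The median standard error of a group difference was 0.12. Adjusted p-values in the text are from this model unless a setting is named. The number of arrays limits the precision. No label ties samples to litters, slides or scan times. An at least N-fold value sets the brighter group's mean against the higher of the dim probe's signal and the array's lowest detected signal.

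The 31 genes, the other gene lists, the tests and the alternatives were chosen with earlier results of these data known. Values per group are given for genes called in any comparison or with probes of opposite direction, and other genes by range; from each other list, up to 4 genes with the smallest adjusted p and those that went against the rest were eligible to be named. The model was also run on simulated data with known changes, and the outcome is not given here. Alternatives were the authors' table, quantile normalization without background correction, 75th percentile scaling, 3 other detection filters, averaged and separate probes, only the 2 groups compared, array weights, a raw background block, a common floor and leaving out each array.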

Additional observations from a re-analysis of the deposited data

Results flagged for a closer look

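In 4 of the 96 sets of 6 arrays (24 genes in 4 groups), the highest or lowest array stood apart from the other 5 by Dixon's criterion, which chance alone meets in about 1 set in 20. Eng read 7.79 on mutant male 4, where the other mutant males read 7.46 to 7.58, and 8.02 on wild-type female 6, where the others read 7.63 to 7.75. Cd34 read 5.68 on wild-type female 1, below the other wild-type females at 6.03 to 6.20. Ets1 read 9.51 on mutant male 1, above the other mutant males at 9.19 to 9.24. That array also had the highest mean of all 24 endothelial genes.

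The mutant difference differed between the sexes for 5 genes by the interaction test in limma, at log2 values (female minus male) of 0.81 for Cd93, 0.62 for Cdh5, 0.67 for Ets1, 0.72 for Flt4 and 0.45 for Robo4.

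Probes that were left out of the comparisons because they were detected on fewer than 6 arrays were also read. A further Egfl7 probe was detected on 3 mutant females and on 0 wild-type females. A further Robo4 probe was detected on 3 mutant males and on 0 wild-type males, and a Vwf probe on 4 mutant males and on 0 wild-type males. These detections lie near the threshold, and the lowest detected signal was 5.52 to 5.79 in wild-type males and 5.19 to 5.28 in mutant males.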

How the results depend on the processing

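The 24 genes in 5 comparisons were recomputed under 12 other settings and with each of the 24 arrays left out. Of 4271 values with 1 level per gene, 0 called differences reversed, 4178 kept their side of the threshold, 78 lost a call and 15 gained one; with each probe tested on its own, the second Robo4 probe was called lower in females (-0.29), against 0.57 for the probe used. Leaving out 1 array, the genes called in males ranged from 7 to 10 higher and from 4 to 4 lower, and in females from 12 to 14 higher and from 2 to 3 lower. The difference between the sexes ranged from 3 to 5 higher and from 0 to 0 lower, with 3 without wild-type male 1 or 5, mutant male 4 or 5, or mutant female 2 or 6. Between wild-type sexes the count ranged from 0 to 0 higher and from 3 to 6 lower, with 3 without wild-type male 1 or wild-type female 4, and between mutant sexes from 0 to 0 each way. With the mean of all kept probes, 3 genes instead of 5 differed between the sexes, and Robo4 and Cdh5 lost their calls. The raw background split each group into replicates 1 to 3 and 4 to 6, and as a block it left the counts of calls at their values. With only the arrays of the lower or the higher raw background (3 per group), 6 genes were higher and 2 lower, and 6 and 3, in males, and 8 and 0 in females in both subsets. The shares of all genes called in these subsets are not given here. Icam2 stood at 2.83 and 2.43 in males and 2.51 and 2.76 in females in these subsets, and Gpihbp1 at 1.98 and 1.59, and 2.12 and 2.32. Podxl passed in males with array weights (adjusted p = 0.031) and with only the male arrays (0.03). The common floor was chosen after seeing the data. No paired analysis was possible because the titles give each sample a number of its own and no replicate number shared between groups. Signals near the detection floor limit the sizes given for Sox17, Flt4, Cd34 and Gpihbp1, whose differences were smaller without background correction. Every called genotype difference was smaller in the authors' table, also at brighter probes such as Icam2 (2.18 in males, 2.17 in females). Cd93 in females was 0.78 there, below 2-fold.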

Other observations

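Folliculostellate and pituicyte genes, which mark the supporting cells of the gland, did not move as one: of 9 measured (S100b was not), 2 were higher and 1 lower in mutant males, and 1 higher and 2 lower in mutant females. Of all genes tested, 25.0% were higher and 26.5% lower in males, and 22.8% and 25.5% in females. Vim, an intermediate filament that endothelium also expresses, was higher in both (1.07 and 0.55), and Aldh1l1, an enzyme of folate metabolism and a glial marker, was lower in both (-1.25 and -0.90). Reln, listed with lymphatic endothelium, was at least 170-fold lower in mutant females (adjusted p = 1.9e-21, limma), with 2 of 6 mutant arrays detected. It was the only one of the 3 measured genes of that list that was lower, and which cells gave its signal was not tested.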
